A study of Homo sapiens with 60 samples.

Results

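Bojungikgi-tang is a traditional Korean formula of several herbs, known in Chinese medicine as Buzhong Yiqi Tang, and was given to HT29 cells as a hot-water extract. HT29 is an established epithelial cell line from a human colorectal adenocarcinoma. The 6 Bojungikgi-tang libraries were chosen by their labels out of 60 in the series: 2 each at 20, 100 and 500 µg/mL (low, medium and high), all 24 h after treatment, with replicate numbers 2 and 3. They were set as 1 group, and then dose by dose, against 3 libraries of cells given the vehicle dimethyl sulfoxide (DMSO), which the labels put at 0.1% and the series text at 2%. For comparison, the water extract of another formula, Sayeok-tang, had 9 libraries, and 4 extracts made with 70% ethanol (fresh ginger, dried ginger, Pinelliae Tuber and Scutellariae Radix) had 36, all at the same 3 doses and time. Vehicle libraries carry a sample code set of their own, and Bojungikgi-tang shares a set with Sayeok-tang alone. Extract, extraction solvent and code set therefore cannot be told apart in some of these comparisons. All libraries came from 1 cell line in serum-supplemented medium, and the labels leave it unsaid whether replicates were cultured apart. The p-values thus rest on the spread among these libraries, which may be technical.

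Gut epithelial cells answer bacterial products and cytokines by activating the transcription factor NF-kB. Its dimers wait in the cytoplasm, bound by IkB proteins, and on release switch on chemokine genes (the CXCL family and CCL20), whose products draw neutrophils and lymphocytes to the mucosa, together with antimicrobial and complement proteins and feedback inhibitors. Interferons act through their receptors and latent transcription factors on a DNA element called ISRE, which drives antiviral genes such as the OAS and IFIT families. The aryl hydrocarbon receptor (AhR) binds plant and dietary ring compounds, and then the DNA core XRE, and induces the oxidising enzymes CYP1A1 and CYP1B1.

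Promoters of genes from these groups are shown because the groups moved in different ways in the libraries. Each is the stretch of 200 bases before the RefSeq start (GRCh38.p14), 5′ to 3′ on the gene's strand, with motif matches on either strand in capitals. For the chemokines CXCL8 (chr4:73740369-73740568, plus strand), CXCL1 (chr4:73869193-73869392, plus strand) and CCL20 (chr2:227813642-227813841, plus strand) the motif was the NF-kB core GGNNNTTCC, where N is any base:

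CXCL8: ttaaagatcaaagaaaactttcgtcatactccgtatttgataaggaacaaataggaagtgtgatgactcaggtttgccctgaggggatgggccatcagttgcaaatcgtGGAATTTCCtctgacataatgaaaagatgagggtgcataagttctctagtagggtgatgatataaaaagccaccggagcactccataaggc
CXCL1: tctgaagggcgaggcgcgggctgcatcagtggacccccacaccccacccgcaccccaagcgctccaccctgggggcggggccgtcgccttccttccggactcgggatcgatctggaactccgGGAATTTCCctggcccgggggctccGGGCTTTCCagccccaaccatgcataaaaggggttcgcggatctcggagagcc
CCL20: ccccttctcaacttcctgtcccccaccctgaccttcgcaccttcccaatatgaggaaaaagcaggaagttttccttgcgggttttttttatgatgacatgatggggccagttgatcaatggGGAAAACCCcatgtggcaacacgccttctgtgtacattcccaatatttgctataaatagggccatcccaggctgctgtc

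For the antiviral genes IFI44 (chr1:78649589-78649788, plus strand) and IFIT1 (chr10:89392423-89392622, plus strand) the motif was the ISRE core, GAAA followed by any pair of bases and GAAA again, and for CYP1A1 (chr15:74725529-74725728, minus strand) the XRE core GCGTG:

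IFI44: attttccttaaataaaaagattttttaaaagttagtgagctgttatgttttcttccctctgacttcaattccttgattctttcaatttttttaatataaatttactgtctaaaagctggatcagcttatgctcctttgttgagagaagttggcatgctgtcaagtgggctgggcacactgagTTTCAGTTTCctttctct
IFIT1: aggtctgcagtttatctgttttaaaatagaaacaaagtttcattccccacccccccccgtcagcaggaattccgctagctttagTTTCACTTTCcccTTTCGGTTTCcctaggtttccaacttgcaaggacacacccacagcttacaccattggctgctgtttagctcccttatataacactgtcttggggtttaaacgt
CYP1A1: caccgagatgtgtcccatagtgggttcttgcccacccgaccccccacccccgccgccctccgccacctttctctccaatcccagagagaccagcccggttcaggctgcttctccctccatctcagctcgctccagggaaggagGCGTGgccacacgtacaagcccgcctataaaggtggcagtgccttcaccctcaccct

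The CXCL8 match began 91 bases before the start, the CCL20 match 79, and the CXCL1 matches 78 and 53. The IFI44 match began 18 bases before the start, the IFIT1 matches 116 and 103, and the CYP1A1 match 57. Of 12 chemokine and defence genes looked up, 10 had a RefSeq promoter in the table and 9 of these held the NF-kB motif, as did 14.3% of 27303 promoters of all genes. The gene without a match was PIGR. The ISRE motif was found in 3 of 5 interferon gene promoters, against 2.44% of all, and the XRE core in 3 of 3 AhR-responsive genes, against 27.9%. These genes were picked with their expression known, so the counts describe the letters in this window and test nothing.

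The Bojungikgi-tang libraries held 23.2 to 27.3 M counts (M, 1e6), and the vehicle libraries 21.3, 35.8 and 26.6 M. All 10 markers of colorectal epithelium were detected, with summed levels of 10900 to 12300 CPM (counts per 1e6 counts, scaled also by TMM, a correction for library composition, where single genes are given) in Bojungikgi-tang and 12500 to 14100 CPM in vehicle libraries. Of 6 leukocyte markers 3 had counts in every library. They summed to 1780 to 1930 CPM in Bojungikgi-tang and 1720 to 1850 CPM in vehicle libraries, nearly all of it lysozyme (LYZ), which gut epithelium also makes, and the T-cell marker CD3E had none. Stromal markers summed to 1.07 to 1.71 CPM in Bojungikgi-tang and 1.35 to 1.74 CPM in vehicle libraries, with 1 of 5 detected in every library. Endothelial markers summed to 1.38 to 2.04 CPM in Bojungikgi-tang and 1.46 to 1.84 CPM in vehicle libraries, and their defining marker CDH5 was at 0. Mitochondrial transcripts took 6.49% to 7.92% of counts in Bojungikgi-tang and 8.86%, 7.62% and 8.22% in vehicle libraries (difference -0.952 points, exact 2-sided permutation p = 0.0476, n = 6 and 3). Ribosomal protein transcripts took 5.32% to 5.74% in Bojungikgi-tang and 7.11%, 6.03% and 5.72% in vehicle libraries (difference -0.786 points, exact p = 0.0476). Both p-values were over 0.05 without vehicle replicate 1, but this test cannot go under 0.05 with any vehicle library left out. Vehicle replicate 1, at 7.11%, lay 14.2 median absolute deviations above the middle of the series. It and 2 libraries of other extracts stand apart.

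With Bojungikgi-tang a compact set of chemokine, antimicrobial and complement genes stood well above vehicle at every dose, interferon genes stood above it by less, and several non-coding RNAs stood below it. Of 16763 genes tested with edgeR's quasi-likelihood test over all 3 doses (Benjamini-Hochberg adjusted p under 0.05), 846 were called, or 5.05%. Of these 333 (1.99%) were higher and 513 (3.06%) lower. The changes were mostly small: the median log2 fold change was 0.27 among the higher and -0.35 among the lower genes, and 37 higher and 47 lower genes passed a size of 1. All 6 Bojungikgi-tang libraries lay above all 3 vehicle libraries in 9.65% of genes and below them in 9.44%. Of the calls, 78 (47 higher, 31 lower) held with each of the 9 libraries left out in turn. Without vehicle replicate 1 the total was 98, of which 62.2% were higher against 39.4% of the 846, and without all 3 libraries that stand apart it was 1604. Protein-coding genes made up 45 of those 47 and 5 of those 31. In bulk RNA fewer cells of a kind and less RNA per cell cannot be told apart.

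Chemokines were among the largest rises. Over the whole NF-kB and chemokine list 13 of 45 genes tested rose and 0 fell, with a median log2 fold change of 0.19. The rises numbered 10 without vehicle replicate 1 and 19 without the 3 libraries that stand apart. Among its 14 ligands tested 9 rose and 0 fell, with a median log2 fold change of 1.98, against -0.01 over all genes tested. The cytokine genes TNF, IL1A, IL1B, CSF2, CSF3 and LTB were too low to test. The low-count filter kept a gene with enough counts in a few libraries of any group. Genes high only with the water extracts could thus enter the test, and only as rises. The 6 ligands that carry the ELR motif of neutrophil-attracting CXC chemokines (CXCL1, CXCL2, CXCL3, CXCL5, CXCL6 and CXCL8) all rose. CCL20, which draws CCR6-bearing lymphocytes and dendritic cells, had a lowest, median and highest level of 4.30, 6.78 and 9.15 CPM in Bojungikgi-tang libraries, against 0.245, 0.140 and 0.304 CPM in vehicle libraries 1, 2 and 3. No library of one group came near the other. The log2 fold change was 4.86 ± 0.25 (adjusted p = 1.2e-18).

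CXCL1, a ligand of the neutrophil receptor CXCR2, stood at 23.4, 28.4 and 30.8 CPM (lowest, median, highest) in Bojungikgi-tang and 2.55, 0.926 and 1.10 CPM in vehicle libraries. Its log2 fold change was 4.25 ± 0.19 (adjusted p = 3.9e-21), and vehicle replicate 1 was the highest of the vehicle libraries, far below the lowest treated one. CXCL8, or interleukin 8, the main neutrophil attractant made by human epithelium, stood at 24.2, 31.6 and 33.5 CPM in Bojungikgi-tang and 5.00, 4.46 and 4.75 CPM in vehicle libraries, with a log2 fold change of 2.65 ± 0.10 (adjusted p = 3.6e-23). The spread within each group was small beside the gap between them. CXCL6 stood at 3.84, 4.21 and 6.18 CPM in Bojungikgi-tang and 0.441, 0.281 and 0.266 CPM in vehicle libraries (log2 fold change 3.80 ± 0.27, adjusted p = 6.3e-14). CXCL3 (2.33 ± 0.21, adjusted p = 2.3e-10) and CXCL2 (2.16 ± 0.27, adjusted p = 7.5e-07), close relatives of CXCL1, rose with them, and near-identical stretches among the 3 may lead to shared reads.

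Some other ligands were near or at 0 in vehicle cells. CXCL5 had 144 counts over the 6 Bojungikgi-tang libraries (16 to 35 each) and 0 over the 3 vehicle libraries. At a floor of 3 counts over the vehicle group the ratio is 26.8, and the exact 95% counting interval begins at 21.5. IL17C, an epithelial cytokine of the IL-17 family that acts on epithelium itself, had 128 counts in Bojungikgi-tang and 6 in vehicle libraries (ratio 11.9 after scaling to library size, exact 95% counting interval 5.32 to 33.0). CSF1, the growth factor of macrophages, rose by 1.79 ± 0.24 on the log2 scale (adjusted p = 4.7e-06). IL32 rose by 1.19 ± 0.34 (adjusted p = 0.0348), a call that was lost with any of 7 libraries left out. CXCL5, IL17C, CSF1 and IL32 were named after their values had been seen. Counting intervals and floors here cover counting error only. CXCL5 and IL17C reached at most 0.0445 and 0.188 CPM in the ethanol extracts. They passed the low-count filter only through the water extracts, where they were high, so their rises add no support to any list count.

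**Figure D1:**
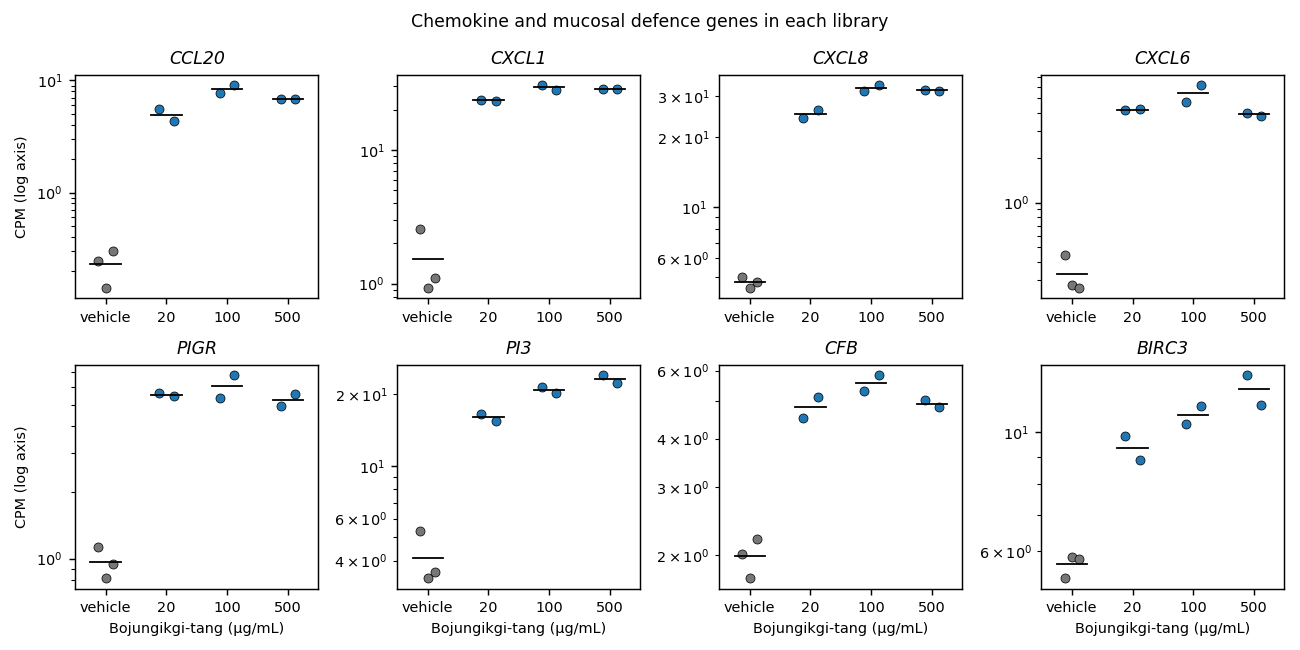
CPM on a log axis in each of 3 vehicle libraries (grey) and 2 libraries at each Bojungikgi-tang dose (blue), for 8 genes; bars are group means. Every treated library lies above every vehicle library, and CCL20 stands at 5.55 and 4.30, 7.73 and 9.15 and 6.76 and 6.81 CPM at 20, 100 and 500 µg/mL.

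The plot of chemokine and defence genes by library shows the same 8 genes dose by dose, with the low-dose pair already apart from vehicle. From 20 through 100 to 500 µg/mL, the log2 fold change against vehicle was 4.45 ± 0.29, 5.23 ± 0.27 and 4.91 ± 0.28 for CCL20, 4.05 ± 0.21, 4.37 ± 0.21 and 4.34 ± 0.21 for CXCL1 and 2.42 ± 0.12, 2.79 ± 0.12 and 2.75 ± 0.12 for CXCL8. The 3 contrasts share the vehicle libraries. A direct test of any difference among the 3 doses called 0 of the 45 NF-kB list genes tested, and 442 genes of all had an unadjusted p under 0.05 in that test. With 2 libraries a dose, a miss does not show that the doses act alike.

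Mucosal defence genes rose with the chemokines: 11 of 17 tested rose and 0 fell, with a median log2 fold change of 0.60. Without vehicle replicate 1 there were 9 rises, and without the 3 libraries that stand apart 10. PIGR, the receptor that carries IgA and IgM across the epithelium, stood at 4.93, 5.54 and 6.82 CPM in Bojungikgi-tang and 1.13, 0.814 and 0.949 CPM in vehicle libraries (log2 fold change 2.57 ± 0.17, adjusted p = 1.1e-14). PI3, or elafin, an inhibitor of neutrophil elastase, stood at 15.4, 20.9 and 24.1 CPM in Bojungikgi-tang and 5.34, 3.37 and 3.57 CPM in vehicle libraries (2.30 ± 0.14, adjusted p = 6.0e-16). The groups did not overlap for either gene.

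Complement genes of the alternative pathway were part of this group. CFB, or factor B, stood at 4.53, 5.08 and 5.85 CPM in Bojungikgi-tang and 2.01, 1.74 and 2.20 CPM in vehicle libraries (1.37 ± 0.16, adjusted p = 5.5e-08). C3, the central complement protein, had 323 counts over the Bojungikgi-tang libraries, 36 to 75 each, and 1 count over the vehicle libraries. The ratio scaled to library size was 180.1 with an exact 95% counting interval of 32.1 to 7130.0. The acute-phase protein SAA1 had 72 counts in Bojungikgi-tang libraries and 0 in vehicle libraries. At the floor of 3 counts over the vehicle group the ratio is 13.4, and the exact 95% counting interval begins at 10.6. SAA1 has a near-identical neighbour, SAA2, so its reads may be shared. With CXCL5, C3 and SAA1 set at their floors, both list medians stay as given. C3 and SAA1 reached at most 0.129 and 0.0393 CPM in the ethanol extracts. They too passed the low-count filter only through the water extracts, so their rises add no support to the defence count.

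The remaining members that rose in the defence list were DUOX2, which makes hydrogen peroxide at the apical surface (2.15 ± 0.61), DMBT1, a scavenger protein that binds bacteria (1.63 ± 0.28), ICAM1, an adhesion molecule for leukocytes (0.72 ± 0.12), LCN2, which withholds bacterial iron carriers (0.60 ± 0.11), MMP7, a protease that activates defensins in mice (0.51 ± 0.09), and SOD2, the mitochondrial superoxide dismutase (0.32 ± 0.08), all as log2 fold changes. MMP7 averaged 79.4 ± 3.58 CPM in Bojungikgi-tang and 55.7 ± 3.47 CPM in vehicle libraries (SD, n = 6 and 3). These 6 complete the 11 and were named after their values were seen. Of the 11 rises, 9 kept their call with each library left out.

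Genes for the NF-kB proteins themselves moved little in RNA level. Of 20 subunits and feedback genes tested, 3 rose and 0 fell, and the median log2 fold change was 0.09. BIRC3, an inhibitor of apoptosis and an NF-kB target, stood at 8.87, 10.8 and 12.8 CPM in Bojungikgi-tang and 5.34, 5.86 and 5.81 CPM in vehicle libraries (0.90 ± 0.08, adjusted p = 3.5e-10), and kept its call with each library left out. NFKBIZ, an atypical IkB protein of the nucleus, rose by 0.28 ± 0.06 (adjusted p = 0.00843), a call lost without vehicle replicate 1. TNFAIP3, or A20, rose by 0.65 ± 0.18 (adjusted p = 0.0284) and lost its call with any of 6 libraries left out. The classical inhibitor gene NFKBIA stood at 22.3 ± 1.33 CPM in Bojungikgi-tang and 22.9 ± 1.86 CPM in vehicle libraries (-0.03 ± 0.09, adjusted p = 0.863). Among 11 receptors and adaptors 1 rose, TLR4, the receptor for bacterial lipopolysaccharide, named for being the 1 call (0.39 ± 0.11, adjusted p = 0.041), and 0 fell. That call was lost with any of 6 libraries left out, vehicle replicates 1 and 2 among them.

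Interferon genes rose as a group but by less than the chemokines: 16 of 30 tested rose and 0 fell, with a median log2 fold change of 0.44. The 20 antiviral effectors gave 11 rises (median 0.47) and the 10 signalling factors 5 (median 0.22). There were 10 rises without vehicle replicate 1, 7 without vehicle replicate 2 and 20 without the 3 libraries that stand apart. IFI44L, a gene of unclear function used as a marker of interferon exposure, stood at 1.68, 2.84 and 3.90 CPM in Bojungikgi-tang and 1.52, 0.870 and 1.06 CPM in vehicle libraries (log2 fold change 1.28 ± 0.30, adjusted p = 0.00891). Every treated library lay above every vehicle library, and vehicle replicate 2 was the lowest of its group. Without that library the call was lost.

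OAS2, which makes the second messenger that activates RNase L, stood at 6.77, 11.4 and 15.0 CPM in Bojungikgi-tang and 6.67, 4.32 and 6.34 CPM in vehicle libraries (0.91 ± 0.18, adjusted p = 0.00218). IFI44 stood at 9.79, 10.8 and 15.6 CPM in Bojungikgi-tang and 7.21, 5.70 and 7.18 CPM in vehicle libraries (0.78 ± 0.12, adjusted p = 2.7e-05). For both genes the groups did not overlap. OAS3 (0.56 ± 0.11, adjusted p = 0.00133), OAS1 (0.45 ± 0.08, adjusted p = 0.000767) and the poly(ADP-ribose) polymerase family member PARP9 (0.43 ± 0.07, adjusted p = 0.000142) rose as well and kept their calls with each library left out. IFIT1, which binds viral RNA ends, rose by 0.57 ± 0.14 (adjusted p = 0.0115), with groups that overlapped, and the call was lost without vehicle replicate 2. MX1 and HERC6, named after their values were seen, rose by 0.63 ± 0.14 and 0.55 ± 0.12, and each lost its call without vehicle replicate 2. ISG15 (-0.08 ± 0.13) and IFI6 (-0.01 ± 0.20), both classical interferon targets and also named after their values were seen, did not pass the test.

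The interferon genes ran highest at the middle dose. From 20 through 100 to 500 µg/mL, the list's median log2 fold change against vehicle was 0.50, 0.58 and 0.20, beside 0.00, -0.01 and -0.01 over all genes. OAS2 gave 1.00 ± 0.22, 1.25 ± 0.22 and 0.47 ± 0.23, and IFI44L gave 1.39 ± 0.36, 1.67 ± 0.36 and 0.80 ± 0.38. The direct test among doses called 0 of the 30 genes, so this order did not pass beyond the spread between 2 libraries a dose. MHC class I genes, which interferon also induces, gave 1 rise and 0 falls of 14 tested, with a median of 0.06, and 0 rises without vehicle replicate 1.

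**Figure D2:**
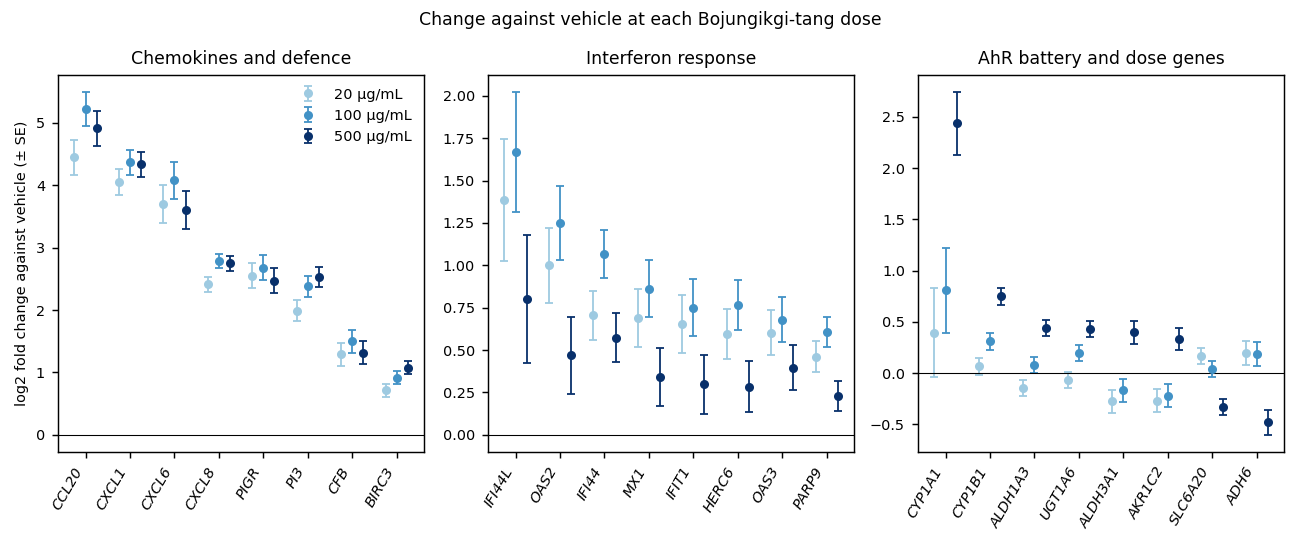
Log2 fold change against vehicle (± SE) at 20, 100 and 500 µg/mL for 8 chemokine and defence genes, 8 interferon genes and 8 genes of the AhR battery or called among doses; axes differ between panels. Every chemokine and defence point lies above 0 at every dose, while CYP1A1 goes through 0.40, 0.81 and 2.44.

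Several AhR targets were higher at the high dose. The test among doses called 8 genes, 0.0477% of those tested, and 5 of them are in the AhR battery of 12 genes tested. That list was chosen with earlier results of these data known, so the overlap is a description and tests nothing. CYP1A1 had 0.286 and 0.547 CPM at 20, 0.485 and 0.635 CPM at 100 and 1.64 and 1.84 CPM at 500 µg/mL, against 0.343, 0.168 and 0.494 CPM in vehicle libraries. The high-dose pair lay above the other treated and the vehicle libraries. The high-minus-low log2 difference was 2.04 (adjusted p over the 3 doses = 0.000951). CYP1B1, its close relative, had 49.1 and 51.0 CPM at 20, 59.4 and 59.3 CPM at 100 and 80.7 and 80.5 CPM at 500 µg/mL, against 46.2, 46.8 and 50.5 CPM in vehicle libraries (high minus low 0.69, adjusted p = 0.000195). Both libraries of each dose lay above both of the dose below, and 1 low-dose library lay within the vehicle range.

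ALDH1A3, which makes retinoic acid, had 18.4 and 17.6 CPM at 20, 20.9 and 21.2 CPM at 100 and 27.8 and 26.3 CPM at 500 µg/mL, against 18.1, 20.4 and 21.0 CPM in vehicle libraries (high minus low 0.59, adjusted p = 0.000951). The glucuronidating enzyme UGT1A6 (0.49, adjusted p = 0.00906) and the aldehyde dehydrogenase ALDH3A1 (0.67, adjusted p = 0.00906) were also higher at the high than at the low dose. UGT1A6 shares exons with the other UGT1A genes, so its reads are uncertain. Outside the battery AKR1C2, a steroid reductase with near-identical relatives, was higher at the high dose (0.61, adjusted p = 0.0164). ADH6, an alcohol dehydrogenase (-0.68, adjusted p = 0.0131), and SLC6A20, a proline transporter (-0.50, adjusted p = 0.00906), were lower there.

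Over all doses against vehicle, 3 of the 12 AhR genes rose and 0 fell: CYP1A1 (1.21 ± 0.31, adjusted p = 0.0182), CYP1B1 (0.38 ± 0.07, adjusted p = 0.00049) and TIPARP, a feedback repressor of AhR (0.28 ± 0.07, adjusted p = 0.0157). CYP1A1 lost that call with any of 4 libraries left out, and 1 gene of the battery was called without vehicle replicate 1 and 1 without vehicle replicate 2. The count of genes called among doses was 1 without high-dose replicate 2, 2 without high-dose replicate 3, 3 without low-dose replicate 3 and 5 without low-dose replicate 2. Against vehicle the single doses gave 71 calls (0.424%) at 20 µg/mL, of which 40 were higher (0.239%) and 31 lower (0.185%). At 100 µg/mL there were 249 (1.49%), 132 higher (0.787%) and 117 lower (0.698%), and at 500 µg/mL 105 (0.626%), 56 higher (0.334%) and 49 lower (0.292%). In these and the dose test a group left with 1 library is assumed to vary like the others.

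Lists that mark the state of the epithelium gave 1 or 2 calls each, beside 1.99% of all genes called higher and 3.06% called lower. Among 16 enterocyte markers 1 rose and 1 fell. The one that rose, the adhesion molecule CEACAM7, stood at 1.25, 1.69 and 2.06 CPM in Bojungikgi-tang and 0.196, 0.449 and 0.456 CPM in vehicle libraries (2.10 ± 0.27, adjusted p = 1.4e-06), while CA9, a carbonic anhydrase, fell (-0.35 ± 0.10, adjusted p = 0.028) and lost its call with any of 7 libraries left out. Among 15 secretory markers 0 rose and 2 fell, the lectin REG4 (-0.36 ± 0.07, adjusted p = 0.00268) and the trefoil peptide TFF3 (-0.41 ± 0.12, adjusted p = 0.0312). TFF3 lost its call with any of 6 libraries left out, vehicle replicates 1 and 2 among them. REG4 lost its call without vehicle replicate 1, as did the stem-cell marker LGR5, the 1 rise among 15 Wnt and stem genes (0.30 ± 0.07, adjusted p = 0.00638). Tight junction genes gave 1 rise and 0 falls of 17, CLDN12 (0.29 ± 0.07), a call lost without vehicle replicate 1 and without vehicle replicate 2. Among the 10 colorectal epithelium markers 0 rose and 2 fell, the keratin KRT19 (-0.29 ± 0.08) and the lectin LGALS4 (-0.26 ± 0.06), and both lost their calls without vehicle replicate 1.

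Stress and metabolic lists gave 0 to 4 calls each, beside 1.99% of all genes called higher and 3.06% called lower. Every list here with a rise or a fall lay above the share for that direction, which 1 call in so few genes is enough to do. NRF2 targets gave 0 rises and 2 falls of 24, HMOX1, or haem oxygenase (-0.34 ± 0.09), and FTL, the ferritin light chain (-0.37 ± 0.10). Fatty acid and lipid genes gave 4 rises and 0 falls of 19, the acyl-CoA synthetases ACSL5 (0.18 ± 0.04) and ACSL3 (0.16 ± 0.04), GPAT3 (0.27 ± 0.07) and PDK4 (0.28 ± 0.08). Cholesterol genes gave 0 rises and 2 falls of 21, MVK (-0.26 ± 0.06) and FDPS (-0.23 ± 0.06). All 8 of these calls were lost without vehicle replicate 1. Integrated stress response genes gave 0 rises and 0 falls of 18 and so did ER chaperones of 18, while heat shock genes gave 1 rise of 15. DNA replication gave 1 rise of 27, RRM2 (0.20 ± 0.04, also lost without that library), and mitosis 1 fall of 22. The EGFR and MAPK, amino acid transport and drug transport lists gave 1 rise each, of 25, 12 and 8, namely PHLDA1 (0.15 ± 0.05), the neutral amino acid transporter SLC1A4 (0.32 ± 0.06) and the efflux pump ABCG2 (0.27 ± 0.08). PHLDA1 and ABCG2 each lost their call with any of 7 libraries left out, while SLC1A4 kept its call with each of the 9 left out. For SLC1A4 all 9 Sayeok-tang and all 36 ethanol-extract libraries also lay above the highest vehicle library, and 14 ethanol-extract libraries above the highest Bojungikgi-tang library. Hypoxia and glycolysis gave 1 rise and 2 falls of 23, autophagy and lysosome 1 fall of 22, p53 targets 1 fall of 15, and LXR targets and metallothioneins no call of 7 each. Without vehicle replicate 1 the heat shock, mitosis, hypoxia and glycolysis, autophagy and lysosome and p53 lists gave 0 calls.

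**Figure D3:**
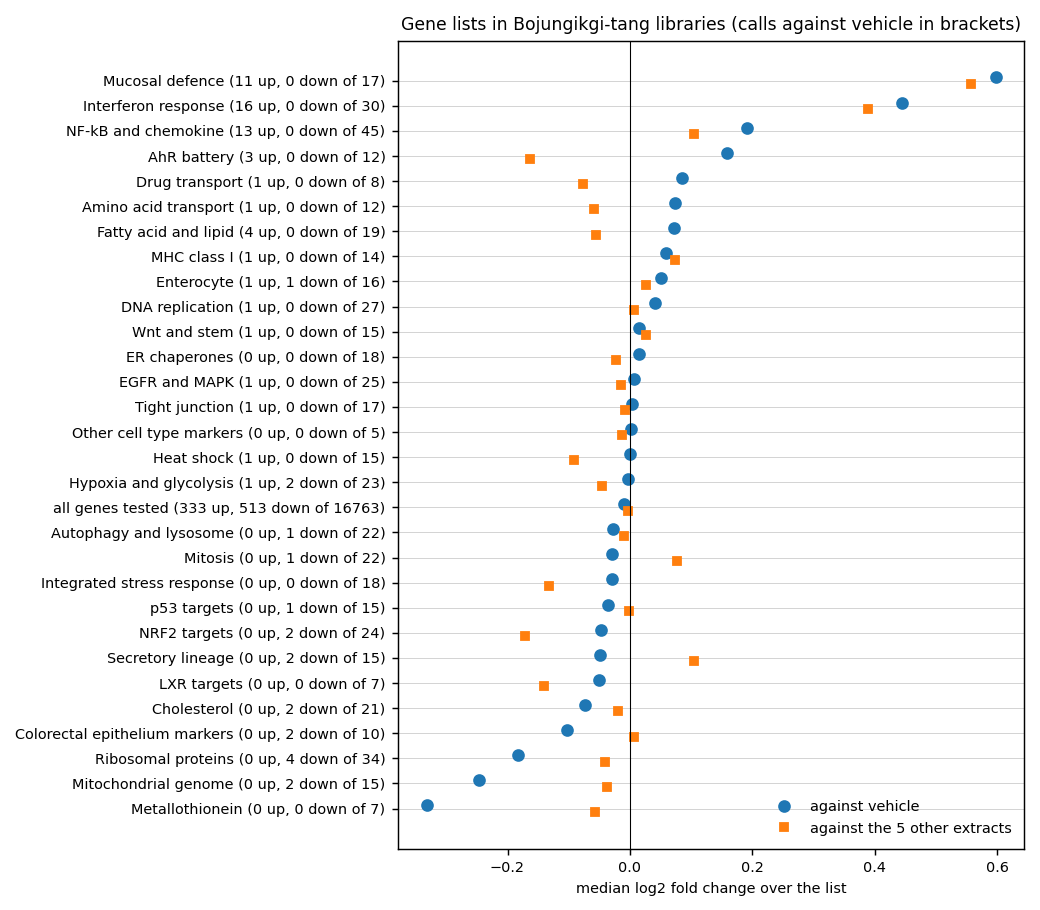
Median log2 fold change of each gene list in Bojungikgi-tang libraries against vehicle (blue circles) and against the 5 other extracts (orange squares), with calls against vehicle in brackets. Mucosal defence (0.60), interferon (0.44) and NF-kB and chemokine (0.19) lists stand highest against vehicle, and the AhR battery changes side between the 2 comparisons.

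The largest falls were mostly of RNAs that code for no protein. Of the 12 named by size, 11 were non-coding RNAs, pseudogenes or unclassified transcripts, and the rest was C4orf48, a short neuropeptide-like gene (-1.08 ± 0.29, adjusted p = 0.0243). FP671120.3, a long non-coding RNA at chr21:8210384-8211306 (GRCh38) on the arm that carries ribosomal RNA genes, stood at 112, 133 and 209 CPM in Bojungikgi-tang and 998, 1120.0 and 1132 CPM in vehicle libraries (-2.95 ± 0.29, adjusted p = 8.9e-09). FP236383.2 and FP236383.3 on the same arm had a log2 fold change of -3.10 each and had equal values in each of these 9 libraries. FP671120.3 had the same level as both in 7 of the 9 and was higher in low-dose replicate 3 and vehicle replicate 3. Reads may be shared among the 3, so their values are uncertain. MALAT1, an abundant nuclear RNA, stood at 572, 604 and 658 CPM in Bojungikgi-tang and 1288, 1135 and 1103 CPM in vehicle libraries (-0.95 ± 0.12, adjusted p = 7.0e-07).

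The RNA polymerase III transcript BCYRN1 (-0.95 ± 0.17, adjusted p = 0.00081), the misc RNA RF00100 (-2.04 ± 0.42, adjusted p = 0.00341), and the pseudogenes MTND4P12 (-1.13 ± 0.20, adjusted p = 0.00063) and RPL15P3 (-0.90 ± 0.18, adjusted p = 0.00269) fell as well. So did AC008655.1, annotated antisense and so uncertain (-1.27 ± 0.32, adjusted p = 0.0173), and AL359922.3, a transcript still to be classified (-1.02 ± 0.17, adjusted p = 0.000244). BCYRN1, MTND4P12, AC008655.1 and C4orf48 lost their calls without vehicle replicate 1. AL358781.1, annotated antisense on chromosome 9, had 0 counts in each Bojungikgi-tang library and 625, 398 and 146 in vehicle libraries. It kept its call in 1 of the 9 leave-one-out fits, and its strand assignment is uncertain. Ribosomal protein genes gave 0 rises and 4 falls of 34 (median -0.18), among them RPLP1 (-0.63 ± 0.14, adjusted p = 0.00457), and mitochondrial transcripts 0 rises and 2 falls of 15 (median -0.25). Without vehicle replicate 1 both lists had 0 falls, with medians of -0.09 and -0.14. Their shares of counts differed between the groups, as given above, with vehicle replicate 1 the highest in both, and their part in the falls was not tested.

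**Figure D4:**
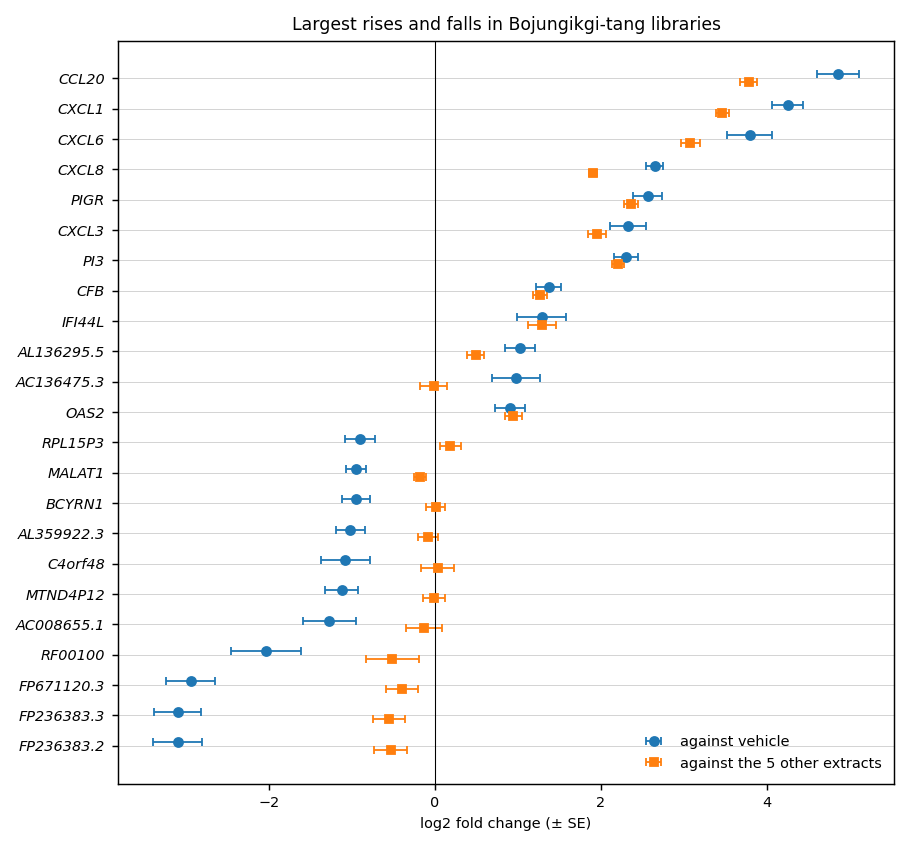
Log2 fold change (± SE) of the 12 largest rises and 11 of the 12 largest falls in Bojungikgi-tang libraries, against vehicle (blue circles) and against the 5 other extracts (orange squares). MALAT1 is at -0.95 against vehicle and -0.18 against the other extracts, while CCL20 is at 4.86 and 3.78.

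Set against the 5 other extracts, a comparison in which no vehicle library is used but the same 6 Bojungikgi-tang libraries are, the chemokine, defence and interferon genes were higher, while MALAT1, BCYRN1, RPL15P3 and FP671120.3 did not pass the test. In all 204 genes were called (1.22%), 134 higher (0.799%) and 70 lower (0.418%). Higher genes included 14 of 45 in the NF-kB and chemokine list, 12 of 17 in mucosal defence and 23 of 30 in the interferon list, with 0 lower genes in each. The first 2 lists take in CXCL5, IL17C, C3 and SAA1, which passed the low-count filter only through the water extracts. Any of these among the higher genes adds no support to the counts. The list medians were 0.10, 0.56 and 0.39, beside -0.003 over all genes. For IFI44L 15 of 36 ethanol-extract libraries lay below the lowest vehicle library and 8 above the highest. Its lowest group, high-dose Scutellariae Radix, averaged 0.212 CPM. For interferon genes this comparison thus also takes in low levels in other extracts, and does not repeat the rise against vehicle alone. CCL20 was higher by 3.78 ± 0.10 (adjusted p = 3.4e-30), CXCL8 by 1.91 ± 0.05 (adjusted p = 3.7e-31), PIGR by 2.37 ± 0.08 (adjusted p = 2.3e-25) and IFI44L by 1.29 ± 0.17 (adjusted p = 5.8e-07). MALAT1 gave -0.18 ± 0.08 (adjusted p = 0.465), BCYRN1 0.01 ± 0.11 (adjusted p = 1), RPL15P3 0.19 ± 0.12 (adjusted p = 0.887) and FP671120.3 -0.39 ± 0.20 (adjusted p = 0.655). AhR genes were lower here, 8 of 12, with CYP1A1 at -0.88 ± 0.16 (adjusted p = 0.000283) and CYP1B1 at -0.36 ± 0.04 (adjusted p = 3.0e-08), as were 10 of 24 NRF2 targets. CYP1A1 averaged 1.74 CPM and CYP1B1 80.6 CPM in high-dose Bojungikgi-tang, against 184 and 499 CPM with medium-dose Scutellariae Radix, the highest of the ethanol-extract groups for both. CYP1B1 ranged over 86.1 to 501 CPM with Scutellariae Radix, but 51.0 to 69.2 CPM in Sayeok-tang, within the Bojungikgi-tang range. The part of Scutellariae Radix in the 8 lower genes was not tested. CYP1B1 was also higher at the high than at the low dose in every library of Sayeok-tang and both gingers.

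**Figure D5:**
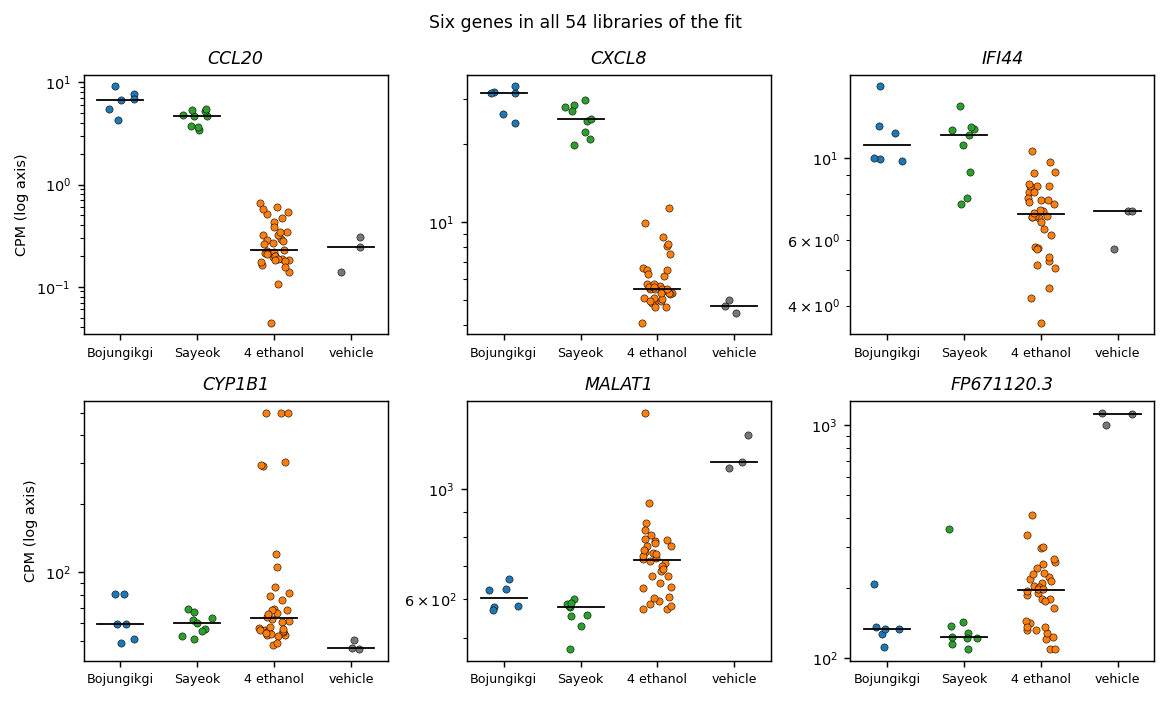
CPM on a log axis for 6 genes in 6 Bojungikgi-tang, 9 Sayeok-tang, 36 ethanol-extract and 3 vehicle libraries; bars are medians. CCL20 and CXCL8 are high in both water extracts and low elsewhere, whereas MALAT1 and FP671120.3 are highest in vehicle apart from 1 ethanol-extract library for MALAT1.

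The plot of 6 genes in all 54 libraries shows where each level sits. CCL20 ranged over 3.40 to 5.44 CPM in Sayeok-tang and 0.0446 to 0.659 CPM in the ethanol extracts, and CXCL8 over 19.9 to 29.7 CPM in Sayeok-tang and 4.08 to 11.3 CPM in the ethanol extracts, so all 36 ethanol-extract libraries lay below the lowest Bojungikgi-tang library for both genes. The same held for CXCL1, CXCL6, CXCL3, CXCL2, PIGR, PI3, CFB, C3 and CEACAM7, and all 9 Sayeok-tang libraries lay above the highest vehicle library for each. FP671120.3 ranged over 110.1 to 359.7 CPM in Sayeok-tang and 109.7 to 411 CPM in the ethanol extracts, below every vehicle library in all of them. MALAT1 ranged over 476 to 602 CPM in Sayeok-tang and 572 to 1427 CPM in the ethanol extracts, where 35 of 36 libraries lay below the lowest vehicle library. These levels are a description, and water extraction and the shared code set cannot be told apart.

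Bojungikgi-tang and Sayeok-tang differed in few genes: 2 were called of 16763 (0.0119%), both higher with Bojungikgi-tang, and 412 had an unadjusted p under 0.05. PI3 stood at 15.4, 20.9 and 24.1 CPM (lowest, median, highest) in Bojungikgi-tang and 10.5 to 15.4 CPM in Sayeok-tang libraries (log2 difference 0.59 ± 0.09, adjusted p = 0.000702). CXCL6 stood at 3.84, 4.21 and 6.18 CPM in Bojungikgi-tang and 1.95 to 3.63 CPM in Sayeok-tang libraries (0.78 ± 0.14, adjusted p = 0.0149). Other chemokines missed the threshold: CXCL1 differed by 0.46 ± 0.09 (interval 0.27 to 0.65, adjusted p = 0.0976), CCL20 by 0.54 ± 0.12 (0.31 to 0.77, adjusted p = 0.13) and CXCL8 by 0.25 ± 0.06 (0.13 to 0.37, adjusted p = 0.404). The intervals are 95% normal intervals from the SE. The interferon gene IFI44 differed by 0.11 ± 0.08 (-0.05 to 0.27, adjusted p = 1). A miss does not show that the 2 formulas act alike. With 1 Bojungikgi-tang library left out, 1 or 2 genes were called.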

How the data were processed

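HT29 cells were sequenced as bulk RNA; the kit was directional, per the labels' protocols. The authors deposited RSEM expected counts per Ensembl gene and library (60675 genes). Per the submitters' processing notes, the tools were RSEM 1.3.3 and STAR 2.7.3a with hg38, after Trim Galore 0.6.5 and FastQC 0.11.9. Annotation release and strand setting: not given in the sources used here. Columns were matched by the codes in the labels, and 210 columns of other samples were not used. In each library 90.0% to 92.1% of values were whole numbers. Expected counts were rounded. At 1 CPM a gene has 18 to 35 counts. Symbols and positions came from GENCODE 29 (GRCh38), and promoters from RefSeq.

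The fit used edgeR 4.0.16 in R 4.3.3 on 54 libraries in 19 groups of 2 or 3: filterByExpr, TMM, estimateDisp without tagwise values, robust glmQLFit, glmQLFTest, and Benjamini-Hochberg at 0.05 (35 residual degrees of freedom, common biological coefficient of variation 0.0855). Coptidis Rhizoma and Zizyphi Fructus, with 1 library a dose, stayed out. Contrasts were the mean of the 3 dose groups minus vehicle, each dose minus vehicle, any difference among doses, and the same mean minus Sayeok-tang or minus the mean of the 15 groups of 5 other extracts. SEs were taken as the log2 fold change's size divided by the root of its F statistic.

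The members and all 29 gene lists were chosen with earlier results of these data known. Named genes were the 12 largest rises and falls that were called, with groups that do not overlap and an average above 1 log2 CPM, up to 4 members a list by smallest p, a panel, and every gene called among doses or against Sayeok-tang. Some genes are not reported here. The motifs were searched in the 200 bases before the start.

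On simulated data for the comparison of the 3 doses with vehicle (16487 genes), the test called 95% of genes with a 1.5-fold change and 100% of those with a 2-fold change, and 5.94% of its calls were false. For the difference among doses these were 75%, 98% and 5.46%. The changes were planted only in genes with higher counts. The simulated spread followed the trend over genes, with no spread of a gene's own and no library standing apart. These rates therefore do not carry over to low-count genes or to the real libraries. Alternatives were DESeq2 1.42.0, DESeq2 size factors, no filter, fewer libraries, other groupings, the replicate number as a block, and each library left out.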

Additional observations from a re-analysis of the deposited data

Results flagged for a closer look

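A single library stood apart from the other 5 Bojungikgi-tang libraries in 10 of 144 groups of 6 looked at, and chance alone sets apart about 1 in 20 by the gap test used. Medium-dose replicate 3 was the library apart for ACSL3 (252.4 CPM), CA9 (51.1 CPM), DNAJC3 (113.7 CPM), HEXA (100.2 CPM), KRT8 (5123 CPM), MT-RNR1 (783.6 CPM) and PIGR (6.82 CPM). It was the highest library for ACSL3, DNAJC3 and PIGR. Low-dose replicate 3 was apart for FDPS (184.4 CPM) and FP671120.3 (208.8 CPM), and low-dose replicate 2 for PSMB9 (2.16 CPM).

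The test among doses set apart 8 genes, given as the high-dose minus the low-dose log2 level. These were CYP1A1 at 2.04, CYP1B1 at 0.69, ALDH3A1 at 0.67, AKR1C2 at 0.61, ALDH1A3 at 0.59, UGT1A6 at 0.49, SLC6A20 at -0.50 and ADH6 at -0.68. Between the 2 water extracts PI3 (0.59) and CXCL6 (0.78) differed, as Bojungikgi-tang minus Sayeok-tang on the log2 scale.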

How the results depend on the processing

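Of 163 genes followed over the alternatives, 2424 of 2771 values kept their side of the threshold, 225 lost a call and 122 gained one. Among genes called in the main fit 0 values reversed direction. For genes not called there, a change of direction was not counted. Of 90 called genes 41 kept their call with every library left out and 30 in every alternative. Counts of calls moved far more, and the cause was not tested. For the 3 doses against vehicle the 846 calls became 1302 in DESeq2, 1652 with every counted gene kept, 2286 with only the libraries compared, 1604 without the 3 libraries that stand apart and 2771 with 1 group of 6 and vehicle alone. They ranged from 98 to 1310 with 1 library left out: 98, 384 and 1310 without vehicle replicates 1, 2 and 3, and 377 without medium-dose replicate 3, 429 without low-dose replicate 3, 433 without high-dose replicate 2, 483 without high-dose replicate 3 and 520 without low-dose replicate 2. DESeq2 gave no adjusted p for 8 of the 14 chemokine ligands and called 4, and for 6 of 17 defence genes and called 7. The low dose gave 158 with DESeq2, 586 with no filter, 131 with only the libraries compared, 444 without those apart, and 22 to 131 with 1 left out. The medium dose gave 629 with DESeq2, 1011 with no filter, 1109 with only the libraries compared, 1598 without those apart, and 30 to 604 with 1 left out. The high dose gave 178 calls with DESeq2, 367 with no filter, 412 without the libraries that stand apart, and 34 to 141 with 1 left out. The difference among doses gave 100 with no filter, 74 with only the libraries compared, 31 without those apart, and 1 to 8 with 1 left out. Against Sayeok-tang these were 53, 24 and 14, and 1 to 2 with 1 left out. Against the other extracts 603 genes were called without those apart, and 122 to 135 with 1 left out.

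With 1 library left out, the mito percent, Bojungikgi-tang minus vehicle, ran from -1.26 to -0.638, and the ribosomal percent, Bojungikgi-tang minus vehicle, from -1.07 to -0.374, with the smallest difference of each without vehicle replicate 1. The exact p of each was over 0.05 with any of 8 of the 9 libraries left out. For the 3 vehicle libraries that was fixed beforehand, since the test then cannot go under 0.05 whatever the values. Replicate numbers did not pair the samples: correlations of same-numbered Bojungikgi-tang and vehicle libraries after removing group means ran from -0.0113 to 0.0319. With the replicate block 797 genes were called over the 3 doses, 83, 230 and 103 at the low, medium and high dose, 9 among doses, 2 against Sayeok-tang and 174 against the other extracts. Depth limits genes such as C3, CXCL5 and SAA1, whose vehicle counts were 0 or 1.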

Other observations

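Several genes outside the groups above also rose against vehicle and kept their calls in edgeR's test with each library left out. All were named after their values were seen. SLFN5, an interferon-inducible protein of the Schlafen family, stood at 29.8, 35.0 and 40.3 CPM (lowest, median, highest) in Bojungikgi-tang and 19.5, 20.8 and 21.1 CPM in vehicle libraries (log2 fold change 0.75 ± 0.08, adjusted p = 9.1e-09). IL4I1, an enzyme that breaks down aromatic amino acids, stood at 1.14, 1.39 and 1.58 CPM in Bojungikgi-tang and 0.392, 0.168 and 0.456 CPM in vehicle libraries (2.08 ± 0.31, adjusted p = 3.2e-05). The groups did not overlap for either gene. PTGS2, the inducible cyclooxygenase of prostaglandin synthesis, stood at 19.7, 21.8 and 23.6 CPM in Bojungikgi-tang and 14.3, 15.0 and 16.4 CPM in vehicle libraries (0.50 ± 0.08, adjusted p = 0.000174). The heparan sulfate carrier SDC4 (0.40 ± 0.06, adjusted p = 0.000114), NAMPT, which makes NAD precursors (0.37 ± 0.07, adjusted p = 0.00187), the interferon gamma receptor chain IFNGR1 (0.33 ± 0.05, adjusted p = 0.000123), the pantetheinase VNN1 (0.33 ± 0.07, adjusted p = 0.00201) and the kinase PLK2 (0.26 ± 0.03, adjusted p = 2.3e-06) rose by less. Other extracts shared much of this. Of 36 ethanol-extract libraries, those above the highest vehicle library numbered 34 for NAMPT, 32 for IFNGR1, 27 for PTGS2 and 26 for SLFN5. They numbered 22 for SDC4, 20 for VNN1, 17 for PLK2 and 3 for IL4I1. All 9 Sayeok-tang libraries lay above it for each gene but PTGS2, with 7. For SLFN5 and IL4I1 all 36 lay below the lowest Bojungikgi-tang library.

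The RNA sensors DDX60 (0.70 ± 0.16, adjusted p = 0.00669) and DDX58, also called RIG-I (0.44 ± 0.09, adjusted p = 0.00288), rose against vehicle. DDX60 lost its call without vehicle replicate 2 and DDX58 without vehicle replicate 1. IFIT3 gave 0.17 ± 0.09 (adjusted p = 0.263). Against the 5 other extracts, where no vehicle library enters, IFIT3 was higher by 0.36 ± 0.05 (adjusted p = 1.7e-05) and NAMPT gave -0.03 ± 0.04 (adjusted p = 1). NAMPT ranged over 171 to 198 CPM in Sayeok-tang and 115 to 299.9 CPM in the ethanol extracts. Among the largest rises AL136295.5, a protein-coding gene on chromosome 14, gave 1.03 ± 0.18 (adjusted p = 0.000471). AC136475.3, annotated antisense on chromosome 11 and so uncertain, gave 0.98 ± 0.29 (adjusted p = 0.0405) and lost its call with any of the 9 libraries left out.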
